A study of Mus musculus with 6 samples.

Results

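The genes of the chondrocyte program described here are *Sox9*, *Sox5* and *Sox6*, which encode the transcription factors known as the SOX trio, and *Acan*, *Hapln1*, *Matn1*, *Matn3*, *Comp*, *Lect1* and *Ucma*, which encode matrix or secreted proteins of cartilage. They were taken by gene name, and all 10 were found among the 43346 genes of the count table. They were chosen by their log2 fold changes between senescent and control cells in these same libraries, so these fold changes are given as a description, without a test. RNA-seq of mouse adult fibroblasts (MAFs), primary cells from ears of adult female C57BL6/J mice, was performed on 3 control and 3 senescent samples. The senescent group was irradiated with 20 Gy of X-rays and spent another 21 days in culture, and controls had a sham treatment. Both groups grew at 3% oxygen, had 100 nM dexamethasone, a glucocorticoid that sets the clocks of cultured cells to a shared phase, for 2 hours, and were harvested 12 hours afterwards.

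SOX9 is an HMG-box transcription factor required for cells to become chondrocytes. SOX5 and SOX6 lack an activation domain of their own, bind as dimers beside SOX9 and strengthen its action at enhancers of *Col2a1* and *Acan*. The matrix these factors drive is a collagen II network filled with aggrecan, with link protein, matrilins and COMP tying its parts together. The external ear is stiffened by elastic cartilage, under a skin rich in fibroblasts.

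Libraries held 50288454 to 82229553 counts, and values are given as TMM-scaled CPM, that is counts relative to a fixed library total, as mean ± SD over 3 libraries per group. Senescent replicate 3 stood apart: its median squared difference from the other senescent libraries was 18.8 and 24.6 times that of sampling noise, against 2.24 between senescent replicates 1 and 2 and 1.78 to 5.02 among control pairs. The senescent label was checked with *Cdkn1a*, an inhibitor of cell cycle kinases, which rose from 123 ± 2.01 to 620 ± 16.3 CPM (log2 fold change 2.33, adjusted p = 2.54e-08), and with the proliferation marker *Mki67*, which fell from 589 ± 17.3 to 9.60 ± 1.49 CPM (log2 fold change -5.94, adjusted p = 1.73e-08). *Cdkn2a*, the gene of p16, rose from 1.2 ± 0.0738 to 4.5 ± 1.5 CPM (log2 fold change 1.90, adjusted p = 0.000398). Nothing in the labels says that the 3 samples of a group came from separate mice or cultures, so every p measures the spread between these samples, which may be technical.

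Summed over the 10 genes, transcript levels fell into 2 separate ranges. The sum came to between 2851 and 2916 CPM in control libraries and to between 282 and 292 CPM in senescent libraries. *Acan* made up 64.1% of that sum in control cells and 45.5% in senescent cells. In 9 of the 10 genes, every senescent library lay below every control library, and *Matn1* was the exception. Among all 17589 genes with enough counts for a test, 75.3% had groups that did not overlap, and 37.0% were lower in senescent cells without overlap. Because whole cultures were sequenced, fewer cells of a type and less RNA per cell cannot be told apart.

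**Figure D1:**
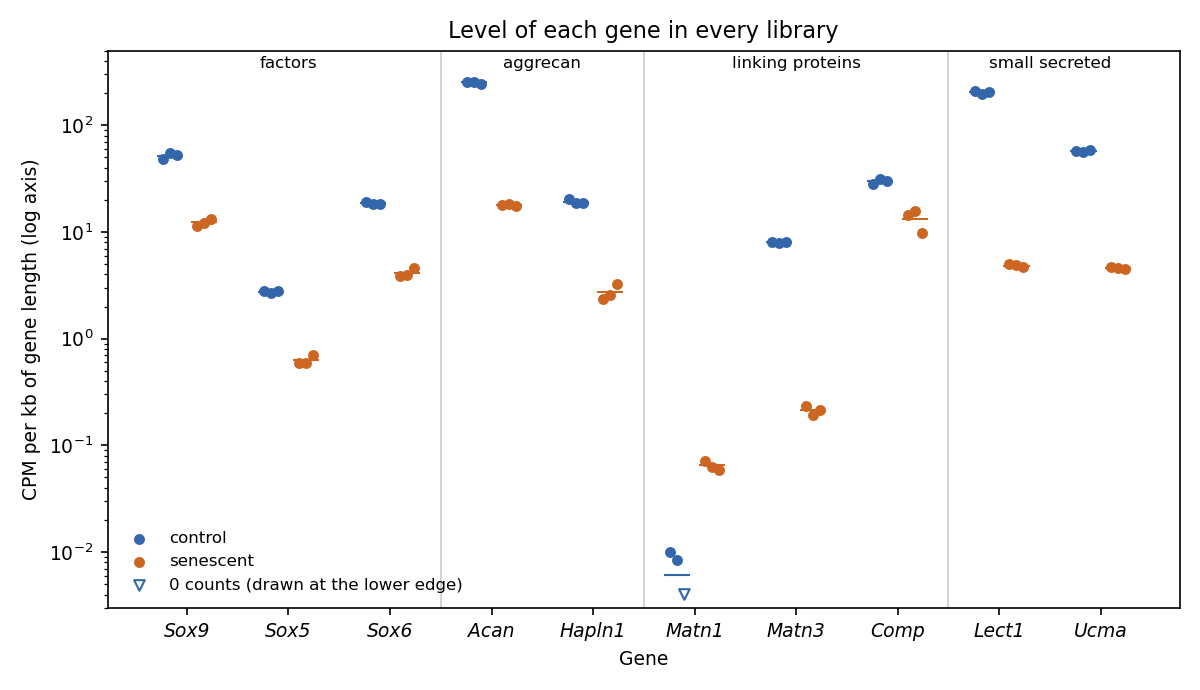
Level of each of the 10 genes in every library, as CPM per kilobase of the gene length listed with the counts, on a log axis, with a short line at each group mean and a triangle for a library with 0 counts. Blue control points sit above orange senescent points for every gene but *Matn1*, and *Acan* has the highest mean in both groups, at 252 in control and 17.8 in senescent cells.

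The factors of the trio shared nearly one size of difference. *Sox9* (ENSMUSG00000000567, mm10 chr11:112782224-112787760) measured 201, 225 and 220 CPM in control replicates 1, 2 and 3 and 47.2, 50.2 and 55.3 CPM in the senescent replicates. Its means were thus 215 ± 12.6 and 50.9 ± 4.11 CPM, with a log2 fold change of -2.08 (standard error 0.08). No senescent library came near the control range, although senescent replicate 3 was the highest of its group.

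*Sox5* (ENSMUSG00000041540, chr6:143828425-144781977), the SOXD gene expressed less strongly of the pair, measured 40.3, 38.8 and 40.1 CPM in control and 8.43, 8.42 and 10.1 CPM in senescent replicates. The log2 fold change was -2.14 (standard error 0.09), a 4.42-fold lower mean. *Sox6* (ENSMUSG00000051910, chr7:115471344-116038744) measured 169, 160.4 and 163 CPM in control and 34.5, 35.2 and 40.7 CPM in senescent replicates. Its log2 fold change was -2.16 (standard error 0.08), a 4.46-fold lower mean, against 4.23-fold for *Sox9*. As in *Sox9*, senescent replicate 3 was the highest senescent library for both SOXD genes, and the groups lay far apart.

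The proportions within the trio were much alike in both groups. Per kilobase, *Sox5* stood at 0.149 ± 0.00253 of *Sox6* in control and 0.150 ± 0.00289 in senescent libraries. The level of this ratio depends on the gene length used, while its comparison between groups does not. With the longest annotated transcript as length, control means were 5.49 CPM per kilobase for *Sox5* and 18.9 for *Sox6*. *Sox9* stood at 2.81 ± 0.239 times *Sox6* in control and 2.97 ± 0.0809 times in senescent libraries, and the ranges of both ratios overlapped between groups. Antisense and intronic transcripts annotated within *Sox5* and *Sox6* had at most 4 counts in any library.

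RefSeq promoters (250 bases before to 50 after a start, assembly GRCm38.p6) were at hand for 8 of the 10 genes, in 13 windows, with none for *Sox9* and *Comp*. The only window of *Sox5*, chr6:143947057-143947356, lies inside the gene and not at its 5′ end. That of *Acan* ends upstream of the gene coordinates given below. Letters that SOX proteins favour, AACAATG or AACAAAG on either strand, were found in 4 windows, all of them among the 6 of *Sox6*, and in 9.36% of 32851 promoters genome-wide. They are shown because *Sox6* is itself a gene of the trio. Each stretch is read 5′ to 3′ on the strand of *Sox6* (the minus strand), with those letters or their reverse complement in capitals, and starts are numbered from the most upstream.

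Sox6 start 1, chr7:116038822-116038888: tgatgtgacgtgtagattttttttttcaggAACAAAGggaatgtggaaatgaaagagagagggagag

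Sox6 start 3, chr7:115995192-115995258: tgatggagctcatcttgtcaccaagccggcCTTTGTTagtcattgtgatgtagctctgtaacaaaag

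Sox6 start 4, chr7:115846149-115846215: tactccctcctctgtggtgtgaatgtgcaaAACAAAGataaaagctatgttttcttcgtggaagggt

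Sox6 start 5, chr7:115824910-115824960: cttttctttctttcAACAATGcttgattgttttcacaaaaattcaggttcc

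These letters lie between positions -236 and -39 relative to their starts. In start 3 they stand in the reverse orientation. The windows of starts 1, 3, 4 and 5 held 47%, 39%, 41% and 45% G and C, against a median of 52.7% for all promoters. Those of starts 2 and 6, without these letters, held 63.3% and 36.7%. The letters searched are mostly A and T, and the part of base composition in the matches was not tested. Such short matches are a description of the letters and not of binding, and the 6 windows belong to 1 gene.

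Other SOX genes were called about as often as genes in general. Of 17 listed genes of the family outside the trio, 9 had enough counts to test, 2 rose, 1 fell and 6 were not called, where a call needs an adjusted p under 0.05 together with a log2 fold change beyond 1 either way. Across all tested genes, 17.7% rose and 12.3% fell by that rule. The median log2 fold change of the 9 was 0.02, beside 0.01 over all tested genes. *Sox11*, a SOXC factor of progenitor cells, rose from 0.219 ± 0.0357 to 1.24 ± 0.217 CPM (log2 fold change 2.49, standard error 0.23, adjusted p = 3.74e-05).

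*Sox21* was at 0 counts in each control library and at 18, 28 and 31 counts in senescent replicates. The gene that fell was *Sox18*, a SOXF factor of vessels, with a log2 fold change of -1.07 (adjusted p = 0.00879), and this count became 0 with libraries scaled by size alone, without control replicate 2 or without senescent replicate 3, and 2 without control replicate 3 or without senescent replicate 1. The count of 2 that rose became 4 without control replicate 3 or without senescent replicate 3. *Sox8*, the closest relative of *Sox9* besides *Sox10*, went from 1.90 ± 0.197 to 0.992 ± 0.214 CPM and was inside the fold limit (log2 fold change -0.96, adjusted p = 0.00197). *Sox13*, the remaining SOXD gene, had a log2 fold change of 0.02 (adjusted p = 0.937), at 2.70 ± 0.235 CPM in controls against 2.75 ± 0.603 CPM after irradiation.

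Aggrecan, the large proteoglycan whose sulfated chains hold water in cartilage, took more counts than any other of the 10 genes. *Acan* (ENSMUSG00000030607, chr7:79053483-79115099) measured 1874, 1880.0 and 1807 CPM in control replicates and 131, 134 and 128 CPM in senescent replicates. The mean was 1854 ± 40.6 CPM in control, 14.2-fold that of senescent cells (log2 fold change -3.82, standard error 0.06). The coefficient of variation was 2.19% over control and 2.30% over senescent libraries, and senescent replicate 3 was the lowest by a small margin. Letters of its promoter are shown here for their base composition, 74.0% G and C over the 300 bases against a median of 52.7% for all promoters, in the 250 bases before the start on the plus strand.

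Acan, chr7:79052976-79053225: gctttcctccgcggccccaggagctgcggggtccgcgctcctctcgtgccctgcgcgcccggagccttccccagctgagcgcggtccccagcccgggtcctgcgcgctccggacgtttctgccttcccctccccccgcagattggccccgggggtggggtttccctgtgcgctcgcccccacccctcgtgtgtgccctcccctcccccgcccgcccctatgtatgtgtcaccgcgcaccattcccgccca

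*Hapln1* encodes cartilage link protein, which fastens aggrecan to hyaluronan. *Hapln1* (ENSMUSG00000021613, chr13:89540636-89611832) measured 103, 94.6 and 94.6 CPM in control and 11.9, 13.1 and 16.6 CPM in senescent replicates (log2 fold change -2.81, standard error 0.12, a 7.03-fold lower mean). Aggrecan and its link protein therefore differed in size of change: per kilobase, *Acan* stood at 13.1 ± 0.599 times *Hapln1* in control and at 6.63 ± 1.18 times in senescent libraries, and these ranges did not overlap. A pseudogene annotation, *Gm8546*, lies within *Hapln1* on the opposite strand and had 58 to 66 counts in control and 87 to 105 in senescent libraries, and the strand setting of the counting is not given in the sources used here.

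Genes that serve to build the chondroitin sulfate chains of aggrecan, enzymes and transporters, were mixed. Of 21 tested genes of this list, 6 fell and 1 rose, with a median log2 fold change of -0.14. *Xylt1*, the xylosyltransferase that starts each chain on the core protein, fell from 93.9 ± 1.09 to 22.9 ± 2.78 CPM (log2 fold change -2.04, standard error 0.09, adjusted p = 6.62e-07). *Csgalnact1*, which begins the chondroitin repeat, fell from 48.3 ± 1.60 to 14.0 ± 1.21 CPM (log2 fold change -1.78, adjusted p = 6.32e-07).

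*Chsy3*, a chondroitin polymerase, rose from 3.55 ± 0.596 to 12.9 ± 0.857 CPM (log2 fold change 1.86, adjusted p = 7.22e-06). The count of genes of this list that rose became 2 when control replicate 1, control replicate 2, control replicate 3 or senescent replicate 1 was left out. The other 14 tested genes of the list were not called.

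Matrilins and COMP are adaptor proteins that bridge collagen fibrils and proteoglycans, and these 3 genes differed widely from each other. *Matn3* (ENSMUSG00000020583, chr12:8947929-8972028) measured 24.5, 24.0 and 24.5 CPM in control replicates and 0.704, 0.581 and 0.652 CPM in senescent replicates. Behind the senescent values stood 39, 46 and 55 counts, against 1198 to 1432 in control libraries. Its log2 fold change was -5.24 (standard error 0.10), a 37.7-fold lower mean.

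*Matn1* (ENSMUSG00000040533, chr4:130944385-130955475), by contrast, was barely detected. It had 1, 1 and 0 counts in control and 8, 10 and 10 counts in senescent replicates, and was the 1 gene of the 10 left out by the filter on low counts. Summed counts were 2 in control and 28 in senescent libraries, a ratio of 10.1 after scaling for library size with a 95% exact interval of 2.56 to 87.8 that covers counting error only. All 3 senescent libraries exceeded the control libraries, and the means were 0.0123 ± 0.0107 and 0.130 ± 0.0133 CPM.

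*Comp* (ENSMUSG00000031849, chr8:70373548-70382065), a thrombospondin of cartilage, tendon and ligament, showed the smallest difference of the genes lower in senescent cells. It measured 68.6, 76.7 and 73.1 CPM in control and 35.1, 37.9 and 23.7 CPM in senescent replicates. The log2 fold change was -1.18 (standard error 0.16). Groups were separate, but senescent replicate 3 was well below the other senescent libraries, and without it the log2 fold change was -0.99.

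Relatives of these adaptors went different ways. *Matn2* and *Matn4* fell (log2 fold changes -1.21 and -1.36, adjusted p = 5.20e-07 and 0.00015), from 136 ± 2.85 to 58.8 ± 1.47 CPM and from 29.2 ± 1.79 to 11.4 ± 2.59 CPM. Other thrombospondins were divided. *Thbs4* fell from 26.7 ± 0.943 to 5.36 ± 0.567 CPM (log2 fold change -2.31, adjusted p = 4.22e-07). *Thbs2* rose from 45.1 ± 1.58 to 182 ± 1.54 CPM (log2 fold change 2.02, adjusted p = 4.89e-08). *Thbs3* and *Thbs1* were inside the fold limit (log2 fold changes -0.41 and 0.95, adjusted p = 0.00992 and 1.11e-06). The promoter of *Matn3*, the matrilin with the largest difference, held none of the letters searched, and its 250 bases before the start are shown for comparison with *Acan* (62.7% G and C over the window, plus strand).

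Matn3, chr12:8947679-8947928: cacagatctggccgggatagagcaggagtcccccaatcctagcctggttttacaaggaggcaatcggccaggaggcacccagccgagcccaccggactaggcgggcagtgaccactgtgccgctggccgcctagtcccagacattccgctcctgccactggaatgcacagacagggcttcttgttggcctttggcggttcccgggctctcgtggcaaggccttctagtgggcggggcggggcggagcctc

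*Lect1*, now named *Cnmd*, encodes chondromodulin, a protein that keeps vessels out of cartilage. *Lect1* (ENSMUSG00000022025, chr14:79637690-79662170) measured 383, 365 and 377 CPM in control and 9.18, 8.97 and 8.57 CPM in senescent replicates. This was the largest difference among the 10 genes, with a log2 fold change of -5.40 (standard error 0.07) and a 42.1-fold lower mean, and 26 tested genes had a lower value. Its homolog in tendon, *Tnmd*, fell from 2.61 ± 0.484 to 0.646 ± 0.0519 CPM (log2 fold change -2.0, adjusted p = 2.68e-05).

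*Ucma* encodes a small vitamin K-dependent protein of the upper growth plate. *Ucma* (ENSMUSG00000026668, chr2:4976122-4985748) measured 50.9, 49.2 and 52.3 CPM in control and 4.19, 4.06 and 3.98 CPM in senescent replicates (log2 fold change -3.64, standard error 0.07, a 12.5-fold lower mean). Neither secreted gene varied much within a group. *Lect1* stood at 3.54 ± 0.0754 times *Ucma* per kilobase in control and at 1.05 ± 0.0140 times in senescent libraries.

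Both promoters are shown, *Lect1* for its 250 bases before the start (minus strand, 56.0% G and C) as the gene with the largest difference, and *Ucma* for the single match, plus strand, to the AP-1 letters TGACTCA or TGAGTCA (in capitals, 23 to 29 bases after the start). These letters are reverse complements of each other and a place was counted once. They occurred in 1 of the 13 windows and in 5.2% of all promoters. The E-box CACGTG was in none of the 13 (7.15% of all promoters), and TATAAA in 2, both of *Sox6* (13.6% of all promoters).

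Lect1, chr14:79662184-79662433: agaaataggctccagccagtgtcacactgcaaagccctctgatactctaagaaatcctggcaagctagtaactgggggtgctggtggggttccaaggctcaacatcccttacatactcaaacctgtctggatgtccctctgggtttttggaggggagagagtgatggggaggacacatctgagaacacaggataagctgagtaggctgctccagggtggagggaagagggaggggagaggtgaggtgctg

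Ucma, chr2:4976134-4976162: gcctgtctgccTGACTCAgaagtgaggac

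The 9 genes with enough counts were all past the threshold downwards, or 8 without senescent replicate 3, where *Comp* was inside the fold limit. Over all tested genes, 30.0% were called in either direction and 12.3% downwards, and nothing is read from the members' count since this contrast chose them. Their log2 fold changes ran from -5.40 to -1.18 with a median of -2.81, beside a median of 0.01 over all tested genes. By role, medians were -2.14 for the trio, -3.32 for *Acan* and *Hapln1*, -3.21 for *Matn3* and *Comp*, and -4.52 for *Lect1* and *Ucma*. Matrix genes other than *Comp* thus differed by more than the trio in size.

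**Figure D2:**
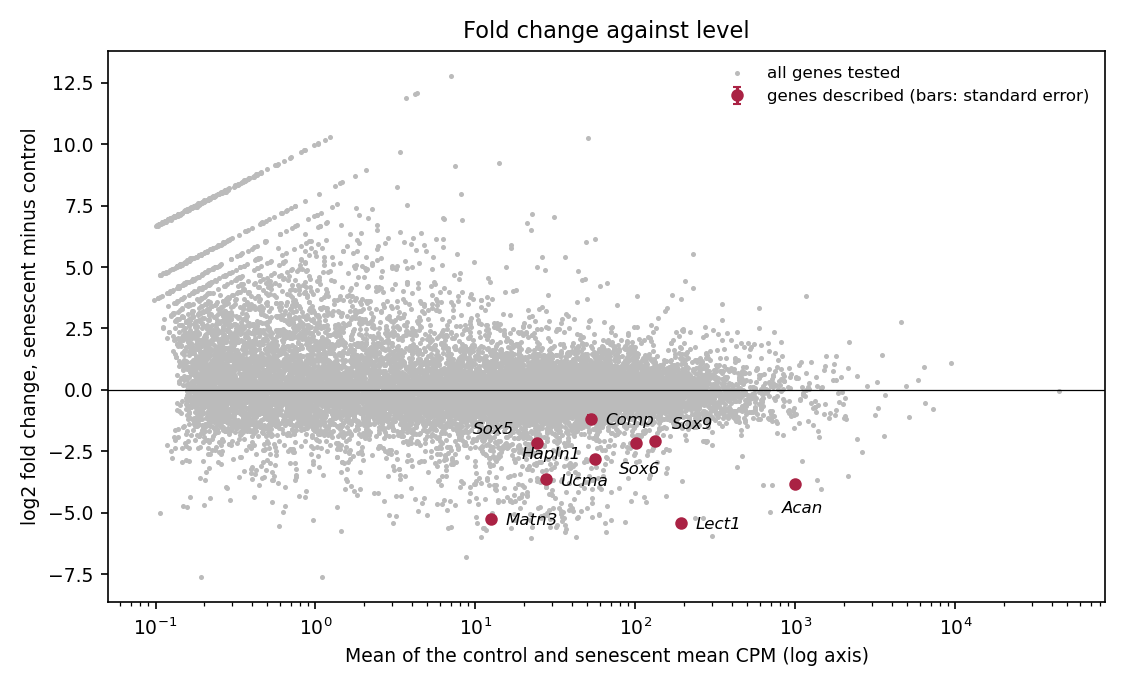
Log2 fold change (senescent minus control) against the mean of both group means in CPM (log axis) for all tested genes in grey and the 9 tested genes of the set in red, with standard errors drawn as bars, mostly smaller than the points. The 9 points lie below 0, from *Comp* at -1.18 to *Lect1* at -5.40, and *Acan* has the highest mean CPM of them.

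*Acan* stood at 4.85 ± 0.334 times *Sox9* per kilobase in control libraries and at 1.45 ± 0.137 times in senescent libraries. *Matn3* went from 0.155 ± 0.0107 of *Sox9* to 0.0175 ± 0.00257. In both cases the control and senescent ranges were separate.

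The order of levels differed between the groups. Per kilobase, control cells had *Acan* (252 ± 5.52 CPM), *Lect1* (204 ± 5.05), *Ucma* (57.4 ± 1.75), *Sox9* (52.1 ± 3.04), *Comp* (30.0 ± 1.67), *Hapln1* (19.3 ± 1.00), *Sox6* (18.5 ± 0.513), *Matn3* (8.07 ± 0.101), *Sox5* (2.76 ± 0.0569) and *Matn1*, with an overlap between neighbours for *Hapln1* and *Sox6* alone. In senescent cells the order was *Acan* (17.8 ± 0.410), *Comp* (13.3 ± 3.11), *Sox9* (12.3 ± 0.994), *Lect1* (4.83 ± 0.170), *Ucma* (4.61 ± 0.117), *Sox6* (4.16 ± 0.387), *Hapln1* (2.74 ± 0.477), *Sox5* (0.625 ± 0.0686), *Matn3* (0.214 ± 0.0205) and *Matn1* (0.0648 ± 0.00663). There, *Comp* overlapped *Sox9*, *Lect1* overlapped *Ucma*, and *Ucma* overlapped *Sox6*.

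*Comp* moved from the fifth to the second place, while *Lect1* moved from the second to the fourth. With the longest annotated transcript as length, *Lect1* (262 CPM per kilobase) came before *Acan* (252) in control cells and *Sox6* (18.9) before *Hapln1* (17.1), and the senescent order did not change. Among all tested genes ranked by level per kilobase, *Lect1* went from the 98.8th percentile in control to the 53.9th in senescent cells, *Matn3* from the 63.5th to the 11.3th, and *Acan* from the 99.0th to the 81.6th.

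The senescent libraries varied among themselves in opposite directions for different genes. Senescent replicate 3 minus the mean of replicates 1 and 2, on the log2(CPM + 0.5) scale, was 0.18 for *Sox9*, 0.25 for *Sox5*, 0.22 for *Sox6* and 0.39 for *Hapln1*. It was -0.61 for *Comp*, and lay between -0.08 and 0.01 for *Acan*, *Matn3*, *Lect1* and *Ucma*. Over all tested genes the 5th and 95th percentiles of this difference were -0.58 and 0.36, so *Comp* (percentile 3.90) and *Hapln1* (percentile 96.7) were near the ends.

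**Figure D3:**
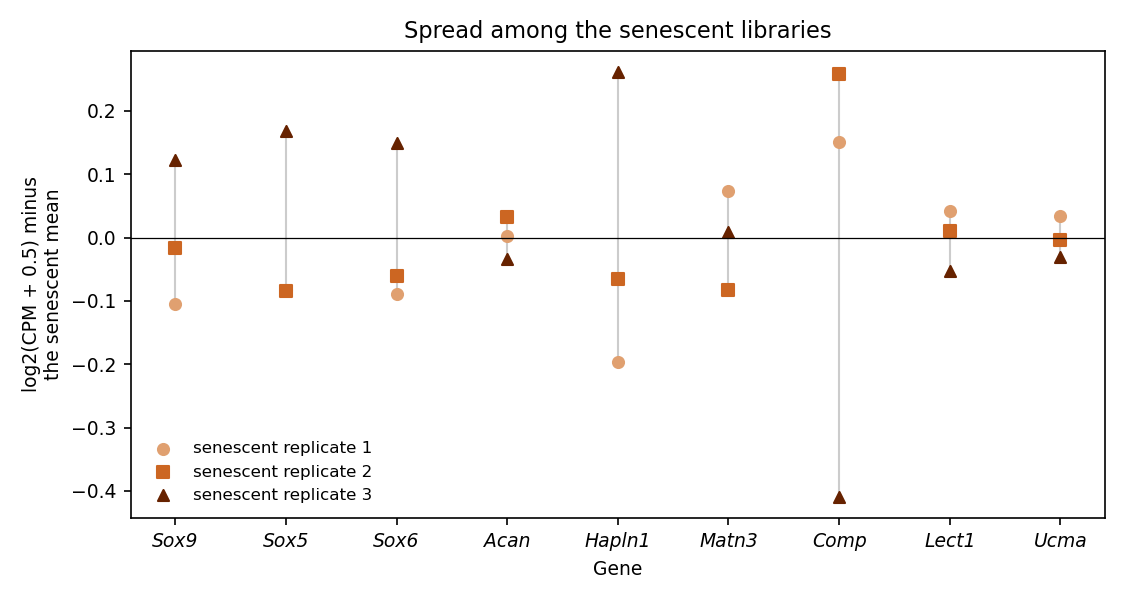
Deviation of each senescent library from the senescent mean on the log2(CPM + 0.5) scale for the 9 tested genes, with a grey line joining lowest and highest. Senescent replicate 3 (triangles) is highest for *Sox9*, *Sox5*, *Sox6* and *Hapln1* and lowest for *Comp*, and for *Sox5* the circle of replicate 1 lies under the square of replicate 2.

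Across the 3 senescent libraries the range was 0.67 for *Comp*, 0.46 for *Hapln1*, 0.23 to 0.25 for the trio and 0.06 to 0.16 for *Acan*, *Matn3*, *Lect1* and *Ucma*, where the median gene had 0.24. Control libraries had ranges of 0.03 to 0.16, with a median of 0.13 over all tested genes. The control range was the smaller of the pair for 8 of the 9 genes, and *Ucma* was the exception, at 0.09 in control and 0.06 in senescent libraries.

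Genes whose profile over the 6 libraries was most like that of a member were found by the root mean square distance between centred log2(CPM + 0.5) profiles, among 14184 other genes averaging at least 50 counts. For *Sox9* the nearest gene was *Sox5* (distance 0.0726), followed by *Scin*, an actin-severing protein (0.0762), and *Cdc7*, a kinase of replication origins (0.0794). For *Sox6* they were *Fancb* of the Fanconi repair complex (0.0151), *Moxd1* (0.0252) and the urea transporter *Slc14a1* (0.0258). *Sox6* was the 5th nearest gene to *Sox5* (0.0345) and the 7th nearest to *Sox9* (0.0841).

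For *Acan*, the nearest were matrix genes *Sned1* (0.0396) and *Fbn2*, a fibrillin (0.0399), and *Racgap1*, a gene of cell division (0.0586). The profiles hold the difference between the groups, so a gene with a like fold change is near by construction. A pseudocount of 2 in place of 0.5 left 1 of the 3 nearest genes of *Sox9* and 0 of those of *Sox6*.

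Genes of the wider cartilage program that are not among the 10 could be tested, although their lists too were drawn up with earlier results in view. The collagens of cartilage were lower almost throughout, with 7 of 8 called lower, 0 called higher and a median log2 fold change of -3.86. *Col9a1*, a chain of the collagen on the surface of cartilage fibrils, fell from 114 ± 3.49 to 3.41 ± 0.0728 CPM (log2 fold change -5.06, standard error 0.07, adjusted p = 8.43e-09). *Col9a3*, a partner chain, fell from 296 ± 32.8 to 14.8 ± 3.43 CPM (log2 fold change -4.32, standard error 0.19, adjusted p = 5.21e-07). The collagen not called was *Col10a1*, the collagen of hypertrophic cartilage, which went from 30.2 ± 0.875 to 18 ± 0.781 CPM. It was inside the fold limit (log2 fold change -0.75, adjusted p = 3.06e-05).

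Other matrix and secreted genes of cartilage were divided, with 12 of 27 called lower, 7 called higher and a median log2 fold change of -0.65. *3110079O15Rik*, the gene of the proteoglycan SNORC, fell from 2.66 ± 0.345 to 0.0907 ± 0.0754 CPM (log2 fold change -4.77, adjusted p = 9.04e-06). Only 2, 14 and 5 counts in senescent replicates stood behind this, so the size of the change is uncertain. *Susd5* fell from 94.5 ± 3.28 to 10.5 ± 0.441 CPM (log2 fold change -3.17, adjusted p = 1.55e-08). *Prg4*, which encodes the joint lubricant lubricin, rose from 14.9 ± 0.967 to 86.6 ± 4.09 CPM (log2 fold change 2.54, adjusted p = 7.23e-08). *Chad*, the gene of the cell-binding protein chondroadherin, rose from 0.189 ± 0.0289 to 1.25 ± 0.190 CPM (log2 fold change 2.71, adjusted p = 2.21e-05). Link protein relatives did not follow *Hapln1*, since *Hapln4* rose (8.01 ± 0.550 to 16.1 ± 0.413 CPM, log2 fold change 1.01) and *Hapln3* was not called (log2 fold change 0.50, adjusted p = 0.301).

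Regulators and signals of chondrogenesis showed 5 of 35 called lower and 12 called higher, with a median log2 fold change of 0.23. *Fgfr3*, a receptor that restrains growth plate proliferation, fell from 116 ± 4.58 to 10.2 ± 1.74 CPM (log2 fold change -3.51, adjusted p = 2.10e-07). *Erg*, an ETS factor of joint cartilage and endothelium, fell from 80.4 ± 1.99 to 7.47 ± 0.165 CPM (log2 fold change -3.43, adjusted p = 1.24e-08).

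Ligands of the bone morphogenetic protein family moved the other way. *Bmp2* rose from 0.0808 ± 0.0201 to 4.81 ± 0.163 CPM (log2 fold change 5.84, adjusted p = 7.82e-08), on 3 to 6 counts per control library and 259 to 421 per senescent library. *Bmp4* rose from 0.0627 ± 0.0200 to 2.21 ± 0.181 CPM (log2 fold change 5.09, adjusted p = 6.30e-07), on 2 to 4 counts per control library.

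Genes that break down cartilage matrix or block its breakdown had 7 of 19 called higher and 4 called lower, with a median log2 fold change of 0.25. The collagenase *Mmp13* rose from 0.134 ± 0.0413 to 16.4 ± 2.54 CPM (log2 fold change 6.93, adjusted p = 1.05e-07). It had only 9, 6 and 6 counts in control replicates, so the size of its fold change is uncertain. The stromelysin *Mmp3* rose from 9.89 ± 0.261 to 451 ± 46.1 CPM (log2 fold change 5.51, adjusted p = 1.24e-08). A pair of proteases of the ADAMTS family fell, *Adamts12* from 55.2 ± 3.54 to 10.7 ± 0.877 CPM (log2 fold change -2.37) and *Adamts9* from 35.6 ± 0.250 to 10.9 ± 0.445 CPM (log2 fold change -1.71). The main aggrecanases were inside the fold limit and so not called, with log2 fold changes of -0.88 for *Adamts4* (adjusted p = 0.000117) and 0.25 for *Adamts5* (adjusted p = 0.0154).

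Of 14 tested genes of hypertrophic cartilage and bone, 4 rose and 3 fell, with a median log2 fold change of 0.00. With any 1 library left out, 5 to 6 genes of this list rose and 3 fell. *Panx3*, a channel of prehypertrophic chondrocytes and osteoblasts, fell from 47.6 ± 1.57 to 1.71 ± 0.185 CPM (log2 fold change -4.80, adjusted p = 1.76e-08), and *Alpl*, alkaline phosphatase, from 8.24 ± 0.120 to 2.40 ± 0.366 CPM (log2 fold change -1.79, adjusted p = 6.99e-06). *Enpp1*, which makes the mineralization inhibitor pyrophosphate, rose from 68.0 ± 1.33 to 277 ± 21.7 CPM (log2 fold change 2.03, adjusted p = 1.76e-07). *Bglap*, osteocalcin, rose on few counts (0, 8 and 6 in control, 102, 148 and 107 in senescent replicates), and is uncertain because near-identical copies lie beside it.

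**Figure D4:**
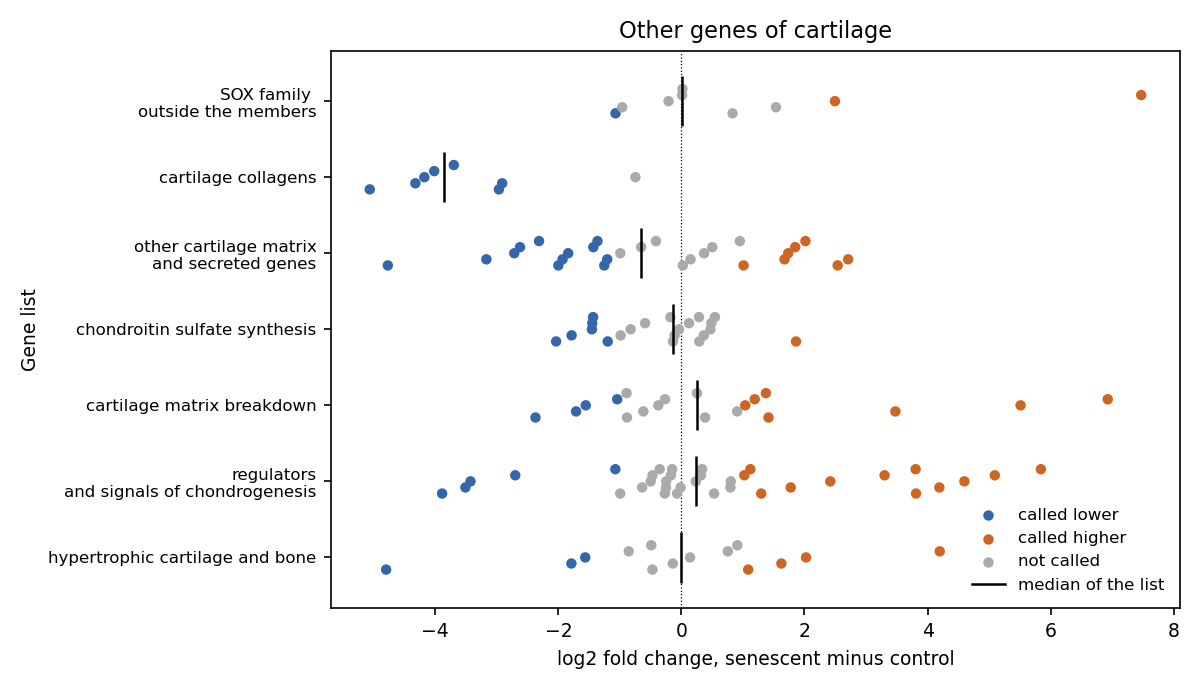
Log2 fold change (senescent minus control) of every tested gene in the 7 lists of genes outside the described set, coloured by call, with a black bar at each list's median and a dotted line at 0. Cartilage collagens lie at a median of -3.86 with 7 of 8 lower, the other lists hold genes on both sides of 0, and the rightmost point of the SOX family is *Sox21*, at 0 counts in control cells, so that its position depends on the method.

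The MAF label was compared with markers of fibroblasts and of other cells. All 17 fibroblast markers were tested, and their sum was 70360 to 72836 CPM in control and 49568 to 55298 CPM in senescent libraries. Of these markers, 6 were called lower (*Col1a1*, *Col1a2*, *Col3a1*, *Col5a1*, *Col6a1* and *Postn*) and 4 called higher (*Dcn*, *Dpt*, *Thy1* and *Fap*). Most of the sum in both groups came from *Fn1*, which was not called (control mean 45655 ± 414 CPM, senescent mean 43858 ± 2275 CPM, log2 fold change -0.06). The sum therefore says little about the other markers. The largest fall among them was that of *Col6a1*, from 3932 ± 179 to 347 ± 55.0 CPM (log2 fold change -3.50, adjusted p = 1.82e-07). Chondrocyte markers outside the 10 genes summed to 5928 to 6504 CPM in control and 671 to 777 CPM in senescent libraries, with 12 of 14 called lower, 1 called higher (*Chad*) and a median log2 fold change of -2.81. None of them was at 0 in all libraries, and *Col2a1*, which defines chondrocytes, went from 2717 ± 246 to 168 ± 37.3 CPM. Most of the chondrocyte markers thus moved in the same direction as the 9 tested genes of the set, and their part in the differences was not tested.

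Markers of other cell types were at far lower sums. Macrophage markers summed to 8.30 to 9.01 CPM in control and 18.3 to 21.1 CPM in senescent libraries (2 of 5 higher, 0 lower), and endothelial markers to 2.43 to 2.83 and 7.52 to 8.34 CPM (3 of 4 higher, 0 lower). Schwann cell and melanocyte markers summed to 52.3 to 57.2 and 46.8 to 52.0 CPM (0 of 5 higher, 1 lower), keratinocyte markers to 16.2 to 17 and 9.41 to 9.82 CPM (1 of 4 higher, 1 lower), skeletal muscle markers to 15.5 to 20.9 and 15.5 to 28 CPM (2 of 3 higher, 0 lower), and adipocyte markers to 35.2 to 38.9 and 25.1 to 27.6 CPM (1 of 2 higher, 0 lower). *Sox10*, which defines the Schwann cell and melanocyte lineage and is the third gene of the SOX9 subgroup, was at 0 counts in all control libraries and at 20, 34 and 8 counts in senescent replicates. No listed marker was at 0 in all 6 libraries.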

How the data were processed

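RNA-seq counts per gene, deposited without normalization, were used for all 6 samples. The authors made stranded mRNA libraries, aligned read pairs to mm10 by STAR within MAPRSeq and counted them with Subread. The strand setting of the counting and the treatment of multi-mapping reads are not given in the sources used here. Groups came from the sample titles.

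From these counts, filterByExpr kept 17589 genes, TMM scaled the libraries, and edgeR's robust quasi-likelihood test (edgeR 4.0.16, R 4.3.3, two-sided, group as the only term) was applied, with Benjamini-Hochberg adjustment across all of these genes. Calls needed an adjusted p under 0.05 together with a log2 fold change beyond 1 either way. A count of 0 allows 3 counts, or 0.0572 CPM over the control and 0.0425 CPM over the senescent group, for counting error only. The edgeR test was also run on simulated data with known changes.

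The 10 genes, the lists and the markers were chosen with earlier results of these data known. Besides the 10 genes, those named were *Cdkn1a*, *Cdkn2a*, *Mki67*, the 3 nearest in profile to *Sox9*, *Sox6* and *Acan*, and in each list up to 2 called genes with the largest change in each direction and a mean of at least 50 counts. *Sox8*, *Sox10*, *Sox13*, *Sox18*, *Sox21*, *Matn2*, *Matn4*, *Thbs1*, *Thbs2*, *Thbs3*, *Thbs4*, *Tnmd*, *Hapln3*, *Hapln4*, *Col10a1*, *Adamts4* and *Adamts5* were picked with their values already seen. So were the genes named among cell type markers and those under other observations. Alternatives were DESeq2 1.42.0, RLE scaling, library size alone, other filters and thresholds, a replicate term, each library left out, transcript length and pseudocount.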

Additional observations from a re-analysis of the deposited data

How the results depend on the processing

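Of 365 values recomputed under an alternative, 332 kept their direction and size or their count within 1.5 times, 33 moved and 0 reversed. All 108 recomputed log2 fold changes of the 9 genes were below 0, and 103 were within 1 SD of the reported value. That SD is not the standard error. *Comp* without senescent replicate 3, at -0.99 against -1.18, was counted within it, although this shift exceeds its standard error of 0.16 and removes its call. The median of the 9 was -2.95 without senescent replicate 3, and -2.95 to -2.71 over all single libraries left out. Requiring 10 or more counts in each library left 1722 genes called higher in all, 4 of the other cartilage matrix genes and 0 of the SOX family. With any fold change, 6360 genes were higher and 6005 lower in all, and 6 chondroitin sulfate genes were higher, while 2 SOX family genes, 9 matrix breakdown genes, 11 regulators and 6 genes of hypertrophic cartilage and bone were lower. Without a filter, 4 SOX family genes, 2 chondroitin sulfate genes and 7 genes of hypertrophic cartilage and bone were higher. Scaling by library size alone left 0 SOX family genes lower. With 1 library left out, 2 to 4 SOX family genes were higher and 0 to 2 lower, and 1 to 2 chondroitin sulfate genes were higher. The longest transcript as length changed the control rank of 4 genes, and a pseudocount of 2 left 1 of the 3 genes nearest to *Sox9* and 0 of those nearest to *Sox6*. The cause of these changes was not tested, apart from the genes that a filter or a fold limit removes by construction.

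The replicate numbers are shared by the groups, and nothing in the labels says whether they pair the samples. Deviations of same-numbered libraries correlated over 17589 genes at -0.37, 0.29 and -0.26, and those of control replicate 1 and senescent replicate 3 at 0.50. With 3 libraries per group and senescent replicate 3 apart from the others, these values cannot decide whether samples were paired. With the replicate block, 3089 genes were higher and 2191 lower in all, the median of the 9 genes was -2.82, and no count moved by over 1.5 times. Depth limits *Matn1* most, with 2 counts in all control libraries together, and among the 9 tested genes *Comp* had the largest standard error, 0.16.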

Other observations

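More of the signals of chondrogenesis than the largest rises named above were higher in senescent cells, where *Sox9*, *Sox5* and *Sox6* were lower. *Bmp6* rose from 0.435 ± 0.0262 to 4.32 ± 0.387 CPM (log2 fold change 3.30, adjusted p = 4.49e-07), and *Bmp7* rose from 0.0247 ± 0.00764 to 0.655 ± 0.124 CPM (log2 fold change 4.6, adjusted p = 2.04e-05). *Bmp7* had only 1, 2 and 1 counts in control and 34, 63 and 47 in senescent replicates, so the size of its fold change is uncertain. *Gdf5* and *Gdf6*, ligands of joint formation, rose by log2 fold changes of 2.42 and 3.81 (adjusted p = 5.92e-06 and 1.35e-06), to 7.46 ± 1.26 and 3.14 ± 0.330 CPM. *Fgf18*, a ligand of FGFR3 in cartilage, rose from 0.219 ± 0.0944 to 3.97 ± 0.568 CPM (log2 fold change 4.19, adjusted p = 3.11e-06), while its receptor gene *Fgfr3* fell. The secreted BMP antagonist *Grem1* rose from 157 ± 3.86 to 2188 ± 205 CPM (log2 fold change 3.81, adjusted p = 2.26e-08), and *Nog*, another antagonist, rose from 1.01 ± 0.152 to 2.46 ± 0.435 CPM (log2 fold change 1.30, adjusted p = 0.000371). A further antagonist, *Chrd*, fell from 8.03 ± 0.593 to 3.83 ± 1.26 CPM (log2 fold change -1.07, adjusted p = 0.0036).

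*Wwp2*, a ubiquitin ligase gene that hosts a cartilage microRNA and is a known target of SOX9, fell from 806 ± 19.6 to 124 ± 12.9 CPM (log2 fold change -2.70, adjusted p = 1.10e-07). *Nkx3-2*, a repressor that acts with *Sox9* in early cartilage, fell from 0.835 ± 0.320 to 0.0531 ± 0.0204 CPM (log2 fold change -3.89, adjusted p = 0.000123). This rests on few counts, 24, 55 and 54 in control and 2, 6 and 4 in senescent replicates.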
